A study of Mus musculus with 2 samples.

Results

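The 10 genes described here mark the state of the liver sinusoidal endothelium, and their transcripts were followed across the cell classes of a single-cell RNA-seq atlas of fatty mouse liver. They were taken by symbol from the gene list of the libraries, where each of the 10 symbols occurred once among 32285 genes. Of them 7 are scavenger genes (Stab1, Stab2, Clec4g, Fcgr2b, Lyve1, Oit3 and Dnase1l3) and 3 are capillarization genes (Cd34, Plvap and Vwf). Each group was sequenced as a single library. Cells of the WT library were from livers of control mice, and those of the N-LKO library from the livers and tumors of mice whose hepatocytes lack NgBR, the cis-prenyltransferase subunit encoded by Nus1. Both groups were male C57BL6 mice fed a Western diet for 16 weeks (the library titles call it HFD). In N-LKO mice floxed NgBR alleles were deleted by a Cre driven by the albumin promoter, so that the deletion is aimed at hepatocytes and not at the endothelium. Hepatocytes and nonparenchymal cells were freed by collagenase perfusion and mixed, and tumor cells were added to the N-LKO mix only. Genotype, tumor tissue and library therefore differed together and cannot be told apart, and with no replicate no test between the groups was possible. Levels are given in CPM, the UMIs of a gene over all UMIs of a class and library on the counts-per-million scale. Intervals below cover counting error only, at 95%.

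Liver sinusoidal endothelial cells (LSECs) line the hepatic sinusoid with a fenestrated wall that has no continuous basement membrane, and they clear macromolecules, immune complexes and modified proteins from portal blood. Stab1 and Stab2 encode the stabilins, large scavenger receptors; Stab2 also binds hyaluronan. Lyve1 encodes another hyaluronan receptor, shared with lymphatic endothelium. Fcgr2b encodes the inhibitory Fc receptor through which LSECs take up immune complexes, and Clec4g (LSECtin) a C-type lectin. Dnase1l3 encodes a secreted DNase, and Oit3 a secreted or membrane-bound zona pellucida domain protein used as an LSEC marker. Capillarization is the loss of fenestrae with a gain of features of continuous endothelium. Cd34 encodes a sialomucin of continuous capillaries, Plvap the protein of the diaphragms that close endothelial pores, and Vwf the von Willebrand factor stored in endothelial granules and in platelets.

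In the GENCODE annotation of GRCm38 the scavenger genes lie apart from each other: Stab1 at chr14:31139013-31168641 (minus strand), Stab2 at chr10:86841198-87008025 (minus strand), Clec4g at chr8:3707064-3720651 (minus strand), Fcgr2b at chr1:170958617-170976547 (minus strand), Lyve1 at chr7:110850607-110863239 (minus strand), Oit3 at chr10:59422958-59441778 (minus strand) and Dnase1l3 at chr14:7964533-7994573 (minus strand). The capillarization genes are Cd34 at chr1:194938819-194961279 (plus strand), Plvap at chr8:71497765-71511752 (minus strand) and Vwf at chr6:125546774-125686679 (plus strand). The labels name mm9 as the build of the deposited counts, so these positions, matched by gene identifier, need not be the ones used for counting. Opposite-strand genes overlap Stab1 (Nt5dc2), Plvap (Gtpbp3), Stab2, Clec4g, Fcgr2b and Cd34.

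Of the 10 genes, 5 had a promoter in the RefSeq table for GRCm38.p6 (Stab1, Stab2, Clec4g, Fcgr2b and Cd34), covering 250 bases before to 50 bases after the start. The upstream parts of 3 are shown because they stand for the 3 patterns described below, a scavenger gene that differed little (Stab1), one that was lower in N-LKO (Clec4g) and a capillarization gene that was higher (Cd34). Each runs 5′ to 3′ on the strand of the gene from 150 bases before the RefSeq start, and capitals mark matches on either strand to AGGAAG, to CCACCC or to TGCTGA. The Stab1 window lies at chr14:31168642-31168791 on the minus strand, the Clec4g window at chr8:3720652-3720801 on the minus strand and the Cd34 window at chr1:194938671-194938818 on the plus strand.
Stab1: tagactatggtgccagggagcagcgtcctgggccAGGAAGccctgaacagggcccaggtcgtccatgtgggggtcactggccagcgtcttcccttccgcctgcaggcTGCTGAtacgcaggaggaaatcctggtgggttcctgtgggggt
Clec4g: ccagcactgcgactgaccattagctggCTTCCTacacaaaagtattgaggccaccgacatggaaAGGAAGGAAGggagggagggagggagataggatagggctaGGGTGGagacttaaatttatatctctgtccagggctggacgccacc
Cd34: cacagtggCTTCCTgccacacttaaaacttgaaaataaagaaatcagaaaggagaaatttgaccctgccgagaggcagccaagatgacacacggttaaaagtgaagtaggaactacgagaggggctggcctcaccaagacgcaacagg

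In all, 8 short motifs were searched on both strands over the whole windows. AGGAAG, the core bound by ETS factors, was in 4 of the 5 promoters (Stab1, Stab2, Clec4g and Cd34) and in 35.4% of all 32851 promoters of the table. CCACCC, a core of KLF sites, was in 4 of 5 (Stab1, Clec4g, Fcgr2b and Cd34) and in 31.5% of all; the matches of Stab1 and Cd34 lie after the start, outside the letters shown. TGCTGA, a part of the site of MAF factors, was in Stab1 only of the 5, and in 19.5% of all. The other motifs were in none of the 5 windows. Of all promoters, the GATA motif AGATAA was in 11.2% and its variant TGATAA in 9.05%, the ETS motif CCGGAA in 14.9%, the SOX motif AACAAT in 10.7% and the AP-1 motif TGACTCA in 5.2%. These are matches of letters in a short window and say nothing of binding.

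The WT library held 85522287 UMIs over 100171 barcodes and the N-LKO library 87575064 over 90147, with medians of 657 and 774 UMIs per barcode. After the filters and removal of predicted doublets 18434 WT and 19851 N-LKO cells were left, of which 122 barcodes occurred in both libraries. Cells were clustered without the 10 genes and fell into 13 named classes and 4 clusters that were mixed or unnamed. Endothelial-like cells, named from 12 other endothelial markers such as Pecam1, Cdh5 and Ptprb, numbered 1876 in WT and 2361 in N-LKO, or 10.2% and 11.9% of cells, with median depths of 1173 and 1263 UMIs. As a check of the labels, Nus1 was at 73.0 CPM in WT hepatocyte-like cells and 39.1 in N-LKO ones, and at 89.7 and 93.2 in endothelial-like cells.

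The 7 scavenger genes marked the endothelial-like cells in both libraries (the map of levels by class). All 7 were highest in endothelial-like cells among the 13 classes, whereas of all genes compared 6.32% were highest there in WT and 9.11% in N-LKO. With free RNA subtracted 6 remained highest in both libraries, Stab1 being the exception. Stab2 had the highest count, with 1573 CPM in WT endothelial-like cells and 65 in hepatocyte-like cells. The class next in level was the hepatic stellate-like cells for all 7 genes in WT, and for all but Stab1 in N-LKO, where it was the neutrophil-like cells. The lead over that next class ran from 1.81-fold (Oit3) to 2.25-fold (Lyve1) in WT and from 2.18-fold (Stab1) to 3.23-fold (Lyve1) in N-LKO, and every interval of these ratios lay above equality. The stellate-like cells also held the 12 endothelial naming markers at 3128 CPM in WT and 1681 in N-LKO, against 5858 and 4255 in endothelial-like cells. Their part in the levels of that class was not tested. In the 135 WT stellate-like cells with no UMI of those 12 markers, Stab2 was at 108 CPM, against 756 in all 904.

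**Figure D1:**
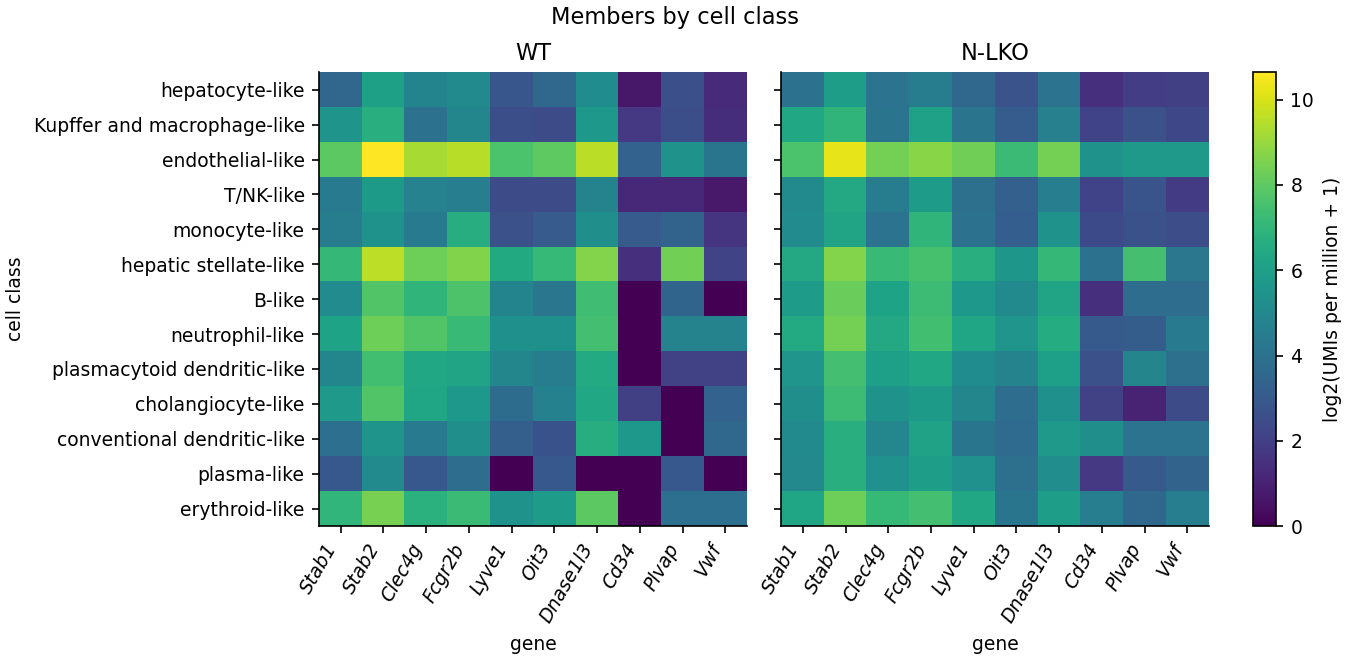
Level of the 10 genes in the 13 named cell classes, as log2(CPM + 1), in the WT (left) and N-LKO (right) library. The scavenger genes are brightest in the endothelial-like row of both panels, with a second, weaker row in hepatic stellate-like cells, and Plvap is brightest in the stellate-like row.

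The capillarization genes were not led by the endothelial-like cells in WT. Plvap was highest in hepatic stellate-like cells in both libraries, at 335 CPM against 42.5 in endothelial-like cells in WT and at 183 against 52.1 in N-LKO. In stellate-like cells with no endothelial marker UMI, Plvap was at 405 CPM (320 to 504) in WT and 91.7 (62.7 to 129) in N-LKO. Among the 13 named classes Cd34, which also marks progenitor cells, was highest in conventional dendritic-like cells in WT. It was at 49.4 CPM there against 9.26 in endothelial-like cells. In N-LKO it was at 42.0 in endothelial-like and 38.5 in conventional dendritic-like cells, a difference smaller than the counting error. A mixed cluster outside these classes held more Cd34 in its cells with no endothelial marker UMI. The levels were 142 CPM from 4 UMIs in WT and 257 (150 to 411) from 17 in N-LKO. Vwf was low in every WT class, with 26.1 CPM in neutrophil-like and 16.4 in endothelial-like cells, which did not differ beyond counting error. In N-LKO endothelial-like cells led with 51.9 CPM, ahead of erythroid-like cells at 22.2, again within counting error of each other.

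Fcgr2b and Stab1 were also counted in immune cells. Fcgr2b was at 99.5 CPM in WT monocyte-like cells and 122 in N-LKO ones, against an estimated 12.5 and 24.5 from free RNA. Stab1, which macrophages also express, was at 44.0 CPM in WT Kupffer and macrophage-like cells and 83.0 in N-LKO ones. In the cells of that class with no endothelial marker UMI the values were 38.5 (29.1 to 49.8) and 86.2 (77.1 to 96.1). Fcgr2b in Kupffer and macrophage-like cells without endothelial markers was at 22.3 CPM (15.3 to 31.3) in WT and 66.5 (58.6 to 75.2) in N-LKO. T/NK-like cells without endothelial markers also had more of both in N-LKO, Stab1 at 13.2 and 28.9 CPM and Fcgr2b at 17.4 and 46.6. B-like ones had Stab1 at 3.97 and 21.4, from 1 and 12 UMIs, but Fcgr2b at 75.3 and 65.9. The part of free RNA in these values was not tested. For both genes the direction in Kupffer and macrophage-like cells was opposite to that in endothelial-like cells, given next.

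Between the libraries, 4 of the 7 scavenger genes were at least 1.5-fold lower in N-LKO endothelial-like cells, 1 was at least 1.5-fold higher, and 2 of the 3 capillarization genes were at least 1.5-fold higher. Dnase1l3, Clec4g, Oit3 and Fcgr2b were the lower ones, and Lyve1, Cd34 and Vwf the higher ones. Thus 4 of 10 genes were lower, where 17.4% of the 11497 genes compared were, and 3 of 10 were higher, where 22.9% were. The median of all genes compared was a log2 ratio of 0.09. These directions were also seen outside the class. In hepatocyte-like cells Dnase1l3 was at -1.14, Clec4g at -0.78, Oit3 at -0.92, Fcgr2b at -0.53 and Lyve1 at 0.78. Cd34 and Vwf stood at 1.56 and 1.05 there, within counting error of equality. Kupffer and macrophage-like cells shared the direction of Dnase1l3 (-1.07) and Lyve1 (1.69) but not of Clec4g (0.15), Oit3 (0.73) and Fcgr2b (1.24). The part of free RNA here was not tested. Values below are log2 ratios of N-LKO over WT with their counting interval.

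Dnase1l3 had 736 CPM in WT (702 to 772) and 339 in N-LKO (320 to 360), with a log2 ratio of -1.12 (-1.23 to -1.01). Clec4g had 608 in WT (577 to 640) and 344 in N-LKO (325 to 364), with a log2 ratio of -0.82 (-0.93 to -0.71). These are the secreted DNase and the lectin, and the intervals of the libraries were far apart. Oit3 had 256 CPM in WT (236 to 277) and 150.04 in N-LKO (137 to 164), with a log2 ratio of -0.77 (-0.94 to -0.60). Fcgr2b had 728 in WT (694 to 763) and 436 in N-LKO (414 to 458), with a log2 ratio of -0.74 (-0.84 to -0.64). Fcgr2b has a close relative in Fcgr3, and how reads shared by the pair were counted is not given in the sources used here, so its level is uncertain.

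The stabilins differed less. Stab2 had 1573 CPM in WT (1523 to 1624) and 1204 in N-LKO (1168 to 1242), with a log2 ratio of -0.39 (-0.45 to -0.32). Stab1 had 248 in WT (229 to 269) and 198 in N-LKO (183 to 214), with a log2 ratio of -0.33 (-0.49 to -0.16). Neither reached 1.5-fold. Lyve1 went the other way from the rest of the scavenger genes, with 195 CPM in WT (178 to 214) and 327 in N-LKO (308 to 347), with a log2 ratio of 0.74 (0.59 to 0.91). In the 54 WT and 281 N-LKO endothelial-like cells of at least 2000 UMIs, of which 8 and 178 lay in the subcluster 3 described below, its log2 ratio was -0.70, and with a mitochondrial limit of 10% it was 0.09.

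Cd34 had 22 UMIs in WT endothelial-like cells, or 9.26 CPM (5.81 to 14.0), and 144 in N-LKO, or 42.0 CPM (35.4 to 49.4), with a log2 ratio of 2.15 (1.53 to 2.90). Vwf had 39 UMIs in WT, or 16.4 CPM (11.7 to 22.4), and 178 in N-LKO, or 51.9 CPM (44.5 to 60.1), with a log2 ratio of 1.64 (1.15 to 2.20). For both genes the N-LKO interval lay above the WT one, from few UMIs. In endothelial-like cells of at least 2000 UMIs Vwf was short of 1.5-fold, at 0.35 from 4 and 31 UMIs. Plvap had 42.5 CPM in WT (34.6 to 51.7) and 52.1 in N-LKO (44.8 to 60.4), with a log2 ratio of 0.29 (-0.07 to 0.66), which was not distinguishable from equality at this depth.

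**Figure D2:**
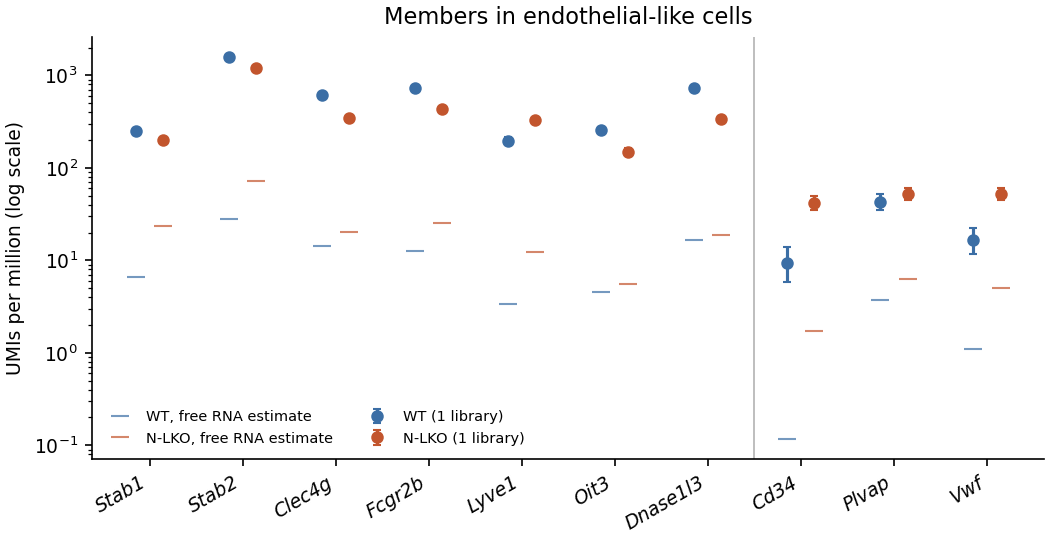
CPM (log scale) of each gene in endothelial-like cells of the WT and N-LKO library; points are sums over the cells of 1 library, bars are 95% Poisson intervals and dashes the level estimated from free RNA. The scavenger genes lie between 150.04 and 1573, and the capillarization genes between 9.26 and 52.1.

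Summed over the 7 scavenger genes, WT endothelial-like cells held 4344 CPM (4260 to 4428) and N-LKO ones 2998 (2941 to 3057), with a log2 ratio of -0.53 (-0.57 to -0.50). The 3 capillarization genes summed to 68.2 (58.1 to 79.6) and 146 (133 to 159), with a log2 ratio of 1.09 (0.84 to 1.36). The 12 naming markers were also lower in N-LKO, at 4255 against 5858 CPM, with a log2 ratio of -0.46 (-0.49 to -0.43). Among them Kdr and Gpr182 also belong to the list of sinusoidal identity genes described below. Singly, 3 of the 12 were at least 1.5-fold lower (Kdr, Ptprb and Eng) and 0 higher, beside 17.4% and 22.9% of all genes compared. Relative to the sum of the 12 markers the scavenger sum had a log2 ratio of -0.07 and the capillarization sum one of 1.56. On that scale 1 scavenger gene was at least 1.5-fold lower (Dnase1l3, -0.66), Stab1 and Stab2 were at 0.13 and 0.08, and Lyve1, Cd34, Plvap and Vwf were at least 1.5-fold higher. Of all genes compared, 6.73% were lower and 47.7% higher on that scale, so the 4 higher of 10 lay near the share of all genes.

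The endothelial-like class fell into subclusters whose shares differed between the libraries. Divided again without the 10 genes, and with each library centred on its own mean, it gave 9 subclusters, 2 of which could be named. Subcluster 1 held 74.0% of WT and 16.6% of N-LKO endothelial-like cells, and subcluster 2 held 6.82% and 43.2%. Both scored highest for sinusoidal markers and are given by number, since neither met the rule for a name. Their shares depend on the setting. Without centring, the largest subcluster held 1550 WT and 65 N-LKO cells and the next 36 and 1262. A difference in makeup can therefore not be told apart from a shift of the whole library. Subcluster 1 was led by Adam23, Msr1 and Esm1, with Mlxipl, Cidec, Ppara and Hgf also among its leading genes. Subcluster 2 was led by macrophage and lymphocyte genes such as C1qb, Cd74 and Skap1. Kupffer and macrophage markers summed to 836 CPM in subcluster 2 and to 320 in subcluster 1. Hepatocyte markers summed to 15385 CPM in subcluster 1, the most of the 9 subclusters, and to 11022 in subcluster 2. Subcluster 3 held 0.959% of WT and 19.4% of N-LKO endothelial-like cells. It was led by Egfr, A1cf and Neat1, its endothelial naming markers summed to 2237 CPM in N-LKO, and its 7 scavenger genes to 1519. Its median depth was 1810 UMIs, against 1171 and 1169 in subclusters 1 and 2. Eda and Tenm3 were also among its leading genes. With a minimum of 500 UMIs both were among the leading genes of an unnamed cluster of 381 WT and 3053 N-LKO cells. That cluster scored highest for hepatocyte markers. What the cells of subcluster 3 are was not tested. The part of this subcluster in the ratios of the class was measured by leaving it out.

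Leaving out subcluster 3, the scavenger sum had a log2 ratio of -0.31 and 2 genes were at least 1.5-fold lower (Dnase1l3 at -0.88 and Clec4g at -0.61), while the capillarization sum stood at 1.35 and 3 genes were higher. Of all genes compared in these cells 16.9% were lower and 17.3% higher, so the 2 lower of 10 lay near the share of all genes. In subclusters 1 and 2 together, with 1517 WT and 1414 N-LKO cells, the scavenger sum was 4749 CPM in WT and 4041 in N-LKO, giving a log2 ratio of -0.23 (-0.28 to -0.19). There Stab1 and Stab2 were at -0.10 (-0.28 to 0.09) and -0.07 (-0.14 to 0.00). Clec4g, Fcgr2b and Oit3 were at -0.54, -0.47 and -0.44, short of 1.5-fold, and Dnase1l3 at -0.78 (-0.91 to -0.66). Lyve1 was at 1.06 (0.88 to 1.24). The 12 naming markers were at -0.25 in these cells. Thus 1 of the 10 genes was at least 1.5-fold lower, where 19.0% of all genes compared in these cells were, and 4 were higher, where 17.0% were.

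In subclusters 1 and 2 all 3 capillarization genes were at least 1.5-fold higher in N-LKO, Plvap among them. Vwf had 5 UMIs in these WT cells, or 2.66 CPM, and 55 in the N-LKO cells, or 30.4 CPM, with a log2 ratio of 3.39 (2.21 to 5.20). Cd34 had 15 and 63 UMIs, with a log2 ratio of 2.09 (1.30 to 3.05), and Plvap 59 and 103, with a log2 ratio of 0.86 (0.39 to 1.35). The direction of Plvap was not stable: in the whole class it was at -0.98 with a mitochondrial limit of 10% and at -0.22 in cells of at least 2000 UMIs. The plot of ratios sets these values beside those of the whole class.

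**Figure D3:**
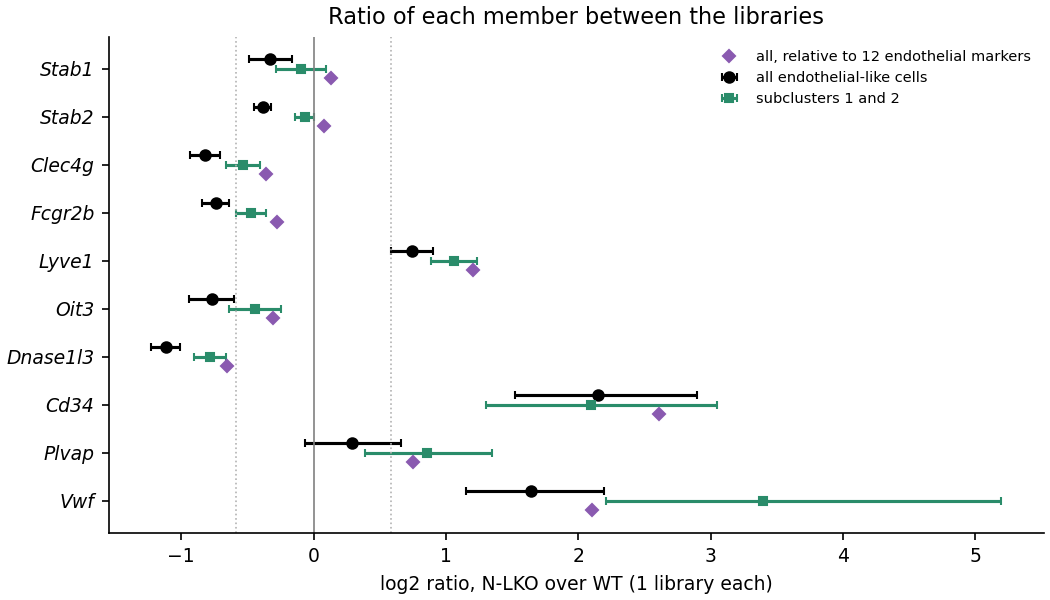
Log2 ratio of N-LKO over WT (x axis, 1 library each) of the 10 genes in all endothelial-like cells (circles), in subclusters 1 and 2 (squares), and in all endothelial-like cells relative to 12 endothelial markers (diamonds); bars are 95% counting intervals and dotted lines mark 1.5-fold. Dnase1l3 stays left of the dotted line and Lyve1, Cd34 and Vwf right of it in all 3, while Stab1 and Stab2 move to near 0.

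The 2 named subclusters carried markers of larger vessels. Subcluster 4, portal and arterial vascular-like (105 WT and 178 N-LKO cells, led by Nrg1 and Adgrg6), had the scavenger genes at 1700 CPM in WT and 1663 in N-LKO and the capillarization genes at 265 and 302. Within it neither sum differed between the libraries beyond counting error, with log2 ratios of -0.03 (-0.27 to 0.21) and 0.18 (-0.41 to 0.81). Of the single genes Stab1 did, at 103 CPM in WT and 203 in N-LKO from 14 and 49 UMIs (0.94, 0.10 to 1.95), opposite in direction to the whole class. Subcluster 5, central vein-like (131 and 79 cells, led by Rspo3), had the scavenger genes at 2686 in WT and 1834 in N-LKO and the capillarization genes at 193 and 514. Its Vwf went from 17 UMIs in WT, or 102 CPM (59.6 to 164), to 36 in N-LKO, or 363 (254 to 502). Of the 39 Vwf UMIs of WT endothelial-like cells, 16 lay in subcluster 4 and 17 in subcluster 5. Of the 178 of N-LKO, 41 and 36 lay there, 42 in subcluster 2 and 29 in subcluster 3.

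The cycling subcluster 6 (52 and 105 cells, led by Top2a and Mki67) had the scavenger genes at 3554 and 3469 CPM. Cd34 was at 132 CPM in its N-LKO cells from 22 UMIs, against 36.4 in WT from 3. The highest Cd34 level was in subcluster 9, 44 cells of N-LKO and none of WT (which allows up to 0.196% of WT endothelial-like cells), led by Sparcl1, Ebf1 and Ly6c1. There Cd34 had 33 UMIs, or 459 CPM (316 to 645), and the scavenger genes summed to 1113, the lowest level of the 9 subclusters. It held 33 of the 144 Cd34 UMIs of N-LKO endothelial-like cells, and subcluster 2 held 52. Subcluster 8, with 3 WT and 53 N-LKO cells and led by genes such as Egr1, Fos and Cxcl10, had the scavenger genes at 2525 CPM and the capillarization genes at 251 in N-LKO.

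**Figure D4:**
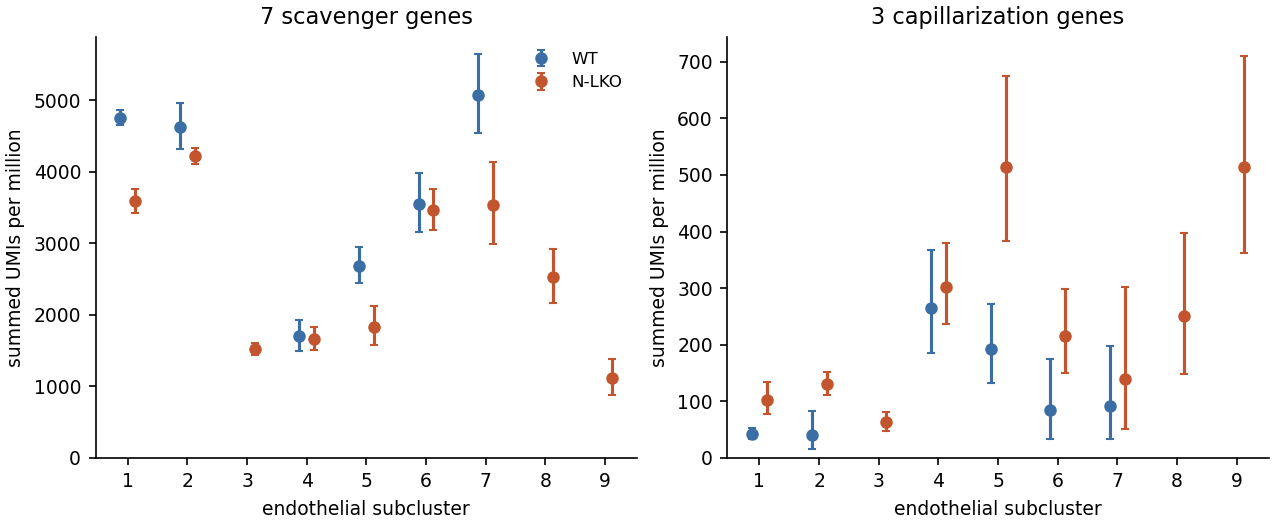
Summed CPM of the 7 scavenger genes (left) and the 3 capillarization genes (right) in each endothelial subcluster with at least 20 cells of a library; bars are 95% Poisson intervals. Subclusters 4, 5, 8 and 9 are lower on the left and higher on the right than subclusters 1 and 2, and subcluster 3 is low in both.

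Counted by cell, after each cell was thinned to 1000 UMIs, 68.9% of WT and 58.7% of N-LKO endothelial-like cells had a Stab2 UMI (74.1% and 66.7% before thinning). In hepatocyte-like cells, which should lack the gene, the shares were 6.2% and 5.3%, and in T/NK-like cells 4.5% and 7.1%, at median depths of 1190 and 1520 UMIs for T/NK-like and hepatocyte-like cells in WT. Dnase1l3 was seen in 48.7% of WT cells (46.4% to 51.0%) and 28.7% of N-LKO ones (26.9% to 30.6%), and Clec4g in 44.5% and 28.0%. Lyve1 was seen in 15.1% (13.5% to 16.8%) and 26.0% (24.2% to 27.8%). Cd34 was seen in 0.959% and 3.73%, Vwf in 1.55% and 4.24%, and Plvap in 4.26% and 5.59%. Each of these lay above the shares in hepatocyte-like and T/NK-like cells of its library.

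Most endothelial-like cells had a scavenger gene UMI, 94.4% in WT and 84.5% in N-LKO, so overlap with the capillarization genes was frequent from the outset. Over the whole class the share was lower among cells with a capillarization gene than among those without. Of the 122 WT endothelial-like cells with a capillarization gene, 86.1% (78.6% to 91.7%) also had a scavenger gene, against 95.0% (93.9% to 96.0%) of the cells without one. In N-LKO it was 76.1% (70.8% to 80.9%) of 293 cells, against 85.6% (84.1% to 87.1%). Cells with both made up 5.6% of WT and 9.45% of N-LKO endothelial-like cells. In subcluster 2 of N-LKO, 108 of the 119 cells with a capillarization gene had a scavenger gene too (90.8%), against 94.7% of those without. The portal and arterial vascular-like cells of N-LKO had 21 of 40 (52.5%), against 69.6%. Subcluster 1 had 57 of 57 in WT, against 97.3%, and 31 of 35 in N-LKO (88.6%), against 91.6%. Within each of these pairs the intervals overlapped. The share of cells with 3 or more of the 7 scavenger genes was 54.4% (52.1% to 56.7%) in WT and 38.2% (36.2% to 40.2%) in N-LKO. The drop was not seen in every subcluster. WT and N-LKO shares were 61.1% and 44.0% in subcluster 1, 31.3% and 21.5% in subcluster 5, and 70% and 41.9% in subcluster 7. They were 30.8% and 41.0% in subcluster 6, and 12.4% in both libraries in subcluster 4. In subcluster 2, 64 of 128 WT and 558 of 1021 N-LKO cells had them. Of these, only subcluster 1 had intervals that lay apart. Subcluster 3 of N-LKO was at 12.9%.

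Related endothelial genes were read from 3 lists. Of 15 other scavenging, endocytic and lysosomal genes compared, 3 were at least 1.5-fold lower in N-LKO and 3 higher, with a median log2 ratio of -0.07. Both counts lay near the shares of all genes compared in the class, 17.4% lower and 22.9% higher. Ehd3, an endocytic recycling protein of LSECs, was at 1002 CPM in WT and 261 in N-LKO, giving a log2 ratio of -1.94, with the clathrin adaptor Dab2 (-0.67) and the lectin Clec1b (-0.62) also lower. The collectin Colec12 (1.64), the HDL receptor Scarb1 (1.00) and the endocytic receptor Lrp1 (0.89) were higher; Lrp1 stood at 50.9 and 95.0 CPM against 42.0 and 60.2 estimated from free RNA.

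Of 16 regulators and signals of sinusoidal identity, 6 were at least 1.5-fold lower, 1 was higher, and the median was -0.49, beside the same 17.4% and 22.9% of all genes. Rspo3 (-1.21) and Wnt2 (-1.11), angiocrine Wnt pathway ligands that set hepatocyte zonation, were lower with the VEGF receptor Kdr (-0.93), which is also a naming marker. Rspo3 and Wnt2 were also among the markers that named the central vein-like subcluster 5. It held 6.98% of WT and 3.35% of N-LKO endothelial-like cells, and its part in these ratios was not tested. Hgf, the hepatocyte growth factor, was higher at 0.76. In subclusters 1 and 2 alone 2 of 15 genes of this list were lower and 2 higher, with a median of -0.17, where 19.0% of all genes compared in these cells were lower and 17.0% higher, so that neither count stood above the share of all genes.

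Of 18 basement membrane and continuous endothelium genes, 8 were at least 1.5-fold higher, 1 was lower, and the median was 0.42, beside 22.9% higher and 17.4% lower of all genes. In subclusters 1 and 2 alone 8 of 18 were higher and 0 lower, with a median of 0.42, beside 17.0% and 19.0% of all genes. Ly6c1 had 4 UMIs in WT and 60 in N-LKO, giving a log2 ratio of 3.22 (1.94 to 5.30). Esm1, an endothelial proteoglycan, was at 35.8 and 152 CPM, with a log2 ratio of 2.08, and Apln, the apelin ligand, was at 1.05 from 10 and 31 UMIs. The tight junction gene Cldn5 was the 1 lower gene in the whole class, at -0.72. All 3 lists were chosen with earlier results of these data known.

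**Figure D5:**
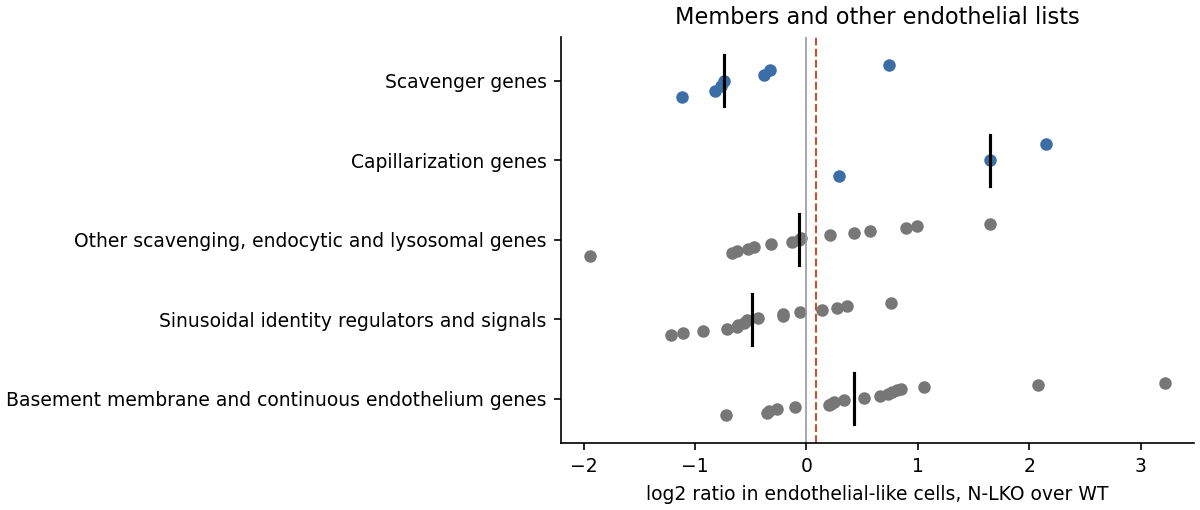
Log2 ratio of N-LKO over WT in endothelial-like cells (x axis) for the 2 member groups (blue) and 3 related lists (grey), 1 point per gene; black bars are medians and the dashed line is the median of all genes compared, 0.09. The scavenger genes lie left of 0 but for Lyve1, and the capillarization genes right of it.

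Over the cell classes, the genes most like the summed scavenger genes were Fbxl7, Cd300lg, Clec14a, Flt1 and Cyyr1, with Pearson r of 0.97, 0.97, 0.96, 0.96 and 0.96 over 26 points (13 classes in each library, on log2 of CPM plus 10). Those most like the summed capillarization genes were Ednrb, Tmem47, Pdlim5, Col8a1 and Fbn1, with r from 0.85 to 0.86. Points of 1 library share its free RNA, and the values are a description.

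Several measures moved with the library. The share of mitochondrial UMIs in endothelial-like cells was 14.3% in WT and 18.1% in N-LKO, and the nuclear transcript Malat1 was at 9194 and 12720 CPM. Ratios went with gene length: in 5 equal bins of genomic span, the median log2 ratio of the genes compared was -0.40, -0.12, 0.04, 0.25 and 0.46 from the shortest to the longest. Stab2 and Vwf, of 167 and 140 kb, lay in the bin of longest genes, Stab1, Dnase1l3 and Cd34 in the middle one, and the other 5 in the next to shortest. The Kupffer and macrophage marker list summed to 375 CPM in WT and 549 in N-LKO endothelial-like cells, with all 11 markers detected in both, against 270 and 450 estimated from free RNA. The 11 hepatocyte markers, whose level set the estimate of free RNA, summed to 16154 and 10229, and the T cell list to 22.3 and 40.2. The part of these measures in the ratios was not tested.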

How the data were processed

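The authors prepared 1 droplet library per group (10x 3′ chemistry) and deposited UMI counts per gene and barcode, not normalized, made with Cell Ranger 7.1.0 per the file headers; the submitters' processing notes name Seurat and mm9. Whether intronic reads were counted is not given in the sources used here. Barcodes with at least 1000 UMIs, 400 genes and at most 30% mitochondrial UMIs were kept, and predicted doublets were removed (Scrublet score over 0.25, run with an expected rate of 10%; 1724 WT and 2363 N-LKO barcodes). Cells were clustered with scanpy 1.11.5 and leidenalg 0.10.2 (2000 variable genes without the 10 members, 30 components, resolution 0.3) and named "-like" from marker lists; the naming thresholds were set after seeing the data. UMIs were summed per class and library and given as CPM, on the counts-per-million scale, with exact Poisson intervals; shares have exact Clopper-Pearson intervals, and log2 ratios, with 0.5 UMI added, exact conditional binomial intervals from scipy 1.17.1. These cover counting error only. Genes of at least 5 CPM in 1 library were compared. Free RNA was estimated from barcodes under 500 UMIs. Ratio code was tested on simulated data. The members and lists were chosen with earlier results of these data known. All members were named; from each list, at most 3 genes per direction with the largest ratio past 1.5-fold and at least 20 UMIs in 1 library; and the 5 genes most alike each sum. Alternatives changed the filters, doublet removal, clustering, scaling, free RNA and depth.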

Additional observations from a re-analysis of the deposited data

Results flagged for a closer look

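Stab1, Stab2 and Fcgr2b had log2 ratios of N-LKO over WT in some immune classes that were opposite in sign to those in endothelial-like cells (-0.33, -0.39 and -0.74). The difference between classes was not tested, since each group is 1 library.

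In Kupffer and macrophage-like cells Stab1 was at 0.91, Fcgr2b at 1.24 and Stab2 at 0.21. In T/NK-like cells Stab1 was at 0.70, Stab2 at 0.61 and Fcgr2b at 1.32. Stab2 was at 0.48 in B-like and at 1.21 in conventional dendritic-like cells. Beside these stand the levels estimated from free RNA: in T/NK-like cells Stab2 was at 54.7 CPM in WT and 84.1 in N-LKO, where free RNA gave 28.6 and 70.6. Stab1 was at 19.97 and 32.8 there, against 6.65 and 22.9. In Kupffer and macrophage-like cells the Stab1 level of 44.0 and 83.0 stood against 4.75 and 15.8. The part of free RNA in these ratios was not tested.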

How the results depend on the processing

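The scavenger sum stayed below 0 and the capillarization sum above 0 in all 13 alternatives, from -0.87 to -0.074 and from 0.82 to 1.56. The scavenger sum, -0.53 as reported, was -0.40 with a minimum of 500 UMIs, -0.24 with a mitochondrial limit of 10%, -0.62 relative to the median of all genes, -0.58 with free RNA subtracted and -0.46 with cells thinned. The last 4 alternatives below were chosen after seeing the data. Without subcluster 3 the scavenger sum was -0.31 and 2 genes were lower, and in subclusters 1 and 2 alone it was -0.23 with 1 lower. Relative to the endothelial markers it was -0.074 with 1 lower. The shares of all genes beside these counts are given above. In endothelial-like cells of at least 2000 UMIs the scavenger sum was -0.87. Of these deep cells 8 of 54 in WT and 178 of 281 in N-LKO lay in subcluster 3, whose part was not tested. The capillarization sum, 1.09 as reported, was 1.47 at the mitochondrial limit of 10%, 1.54 in subclusters 1 and 2, 1.56 relative to the endothelial markers and 0.82 in cells of at least 2000 UMIs. Lyve1 was -0.70 in those deep cells (54 of WT and 281 of N-LKO, 178 of them in subcluster 3); the cause was not tested. Clec4g, Fcgr2b, Oit3, Dnase1l3, Cd34 and Vwf kept their sign in 13 of 13 alternatives, Lyve1 in 12, and Stab1, Stab2 and Plvap in 11; Vwf was lowest at 0.35 in the deep cells, and Plvap at -0.98 with the mitochondrial limit of 10%, where Lyve1 was 0.09. Clustering with a minimum of 2000 UMIs gave no endothelial-like cluster, so no value. No paired analysis was possible because each group is 1 library. Depth limits Cd34 and Vwf most, with 22 and 39 UMIs in WT.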
